A study of Homo sapiens with 2 samples.

Results

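The genes described here encode the ligands of the tumour necrosis factor (TNF) family and their receptors, measured in a human B-cell precursor leukaemia line with and without induced PAX5. Members were the rows of the count table whose Entrez number maps to a symbol starting with TNFRSF or TNFSF, or to CD27, CD40, CD40LG, CD70, FAS, FASLG, LTA, LTB, LTBR, TNF, EDAR, EDA2R, NGFR or RELT. The rule found 49 of 25702 rows. Of these, 46 encode 29 receptors and 17 ligands, and 3 are other rows whose names share the prefix (TNFRSF10A-DT, TNFRSF14-AS1 and the readthrough TNFSF12-TNFSF13). The cells were REH cells (labelled REH-R), a B-cell acute lymphoblastic leukaemia line, that carried a tet-regulated cassette of either PAX5 linked through an IRES (an internal ribosome entry site) to the fluorescent reporter GFP, or of IRES and GFP only, as the control. To switch the cassette on, both lines were kept in doxycycline (1 µg/mL) over 3 days, and RNA came from the sorted GFP+ fraction. Whether each line was 1 clone or a pool is not given in the sources used here. Each group had a single library (n = 1), so the differences have no replicate check and no test was possible.

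TNF-family ligands are mostly trimers on the cell surface or shed from it, and they signal by clustering their receptors. Receptors with an intracellular death domain can recruit FADD and caspases, whereas the other signalling receptors bind TRAF adaptors and lead to NF-kB and kinase activation, and decoy receptors bind ligand without signalling. In the B lineage, the receptor for B-cell activating factor (BAFF), encoded by TNFRSF13C, sustains mature B cells, CD40 receives help from T cells, and CD30, encoded by TNFRSF8, marks activated lymphocytes and the tumour cells of Hodgkin lymphoma. PAX5 is a paired-box transcription factor required for commitment to the B lineage.

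The libraries held 11944765 counts (PAX5) and 10997864 counts (control). PAX5 itself had 8319 against 2660 counts, 2.91-fold (95% counting interval 2.78 to 3.04), so control cells were not free of PAX5 transcript. B-cell precursor genes were abundant in both libraries, with RAG1 at 32494 (PAX5) and 32110 (control) counts and DNTT at 19209 and 20376. Of 13 such markers 12 had at least 10 counts summed over the libraries, and CD34 had 1 and 0. Levels are given as counts per 1000000 (CPM) per kilobase of gene length, and differences as log2 ratios or folds of the PAX5 library over the control library. The intervals reflect counting error alone, so they set 2 libraries against each other rather than 2 conditions. To be called higher or lower, a gene needed at least 10 summed counts and an interval whose bound nearest to 0 reached 2-fold.

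Of the 49 members, 27 had at least 10 counts, 8 had 1 to 9 counts and 14 had 0 counts in both libraries. Among the 27, 2 were called higher in the PAX5 library, TNFRSF8 and TNFRSF13C, and 0 were called lower. Over all 13532 features with at least 10 counts, 1.34% were called higher and 0.0517% lower. The interval lay above 0 for 6 members and below 0 for 4, beside 18.7% and 16.8% of all features, so intervals off 0 were about as common among members as elsewhere. The median log2 ratio of the 27 was 0.02, and that of all features was -0.01. TNFRSF8 stood far outside the range of the other 26 log2 ratios, which ran from -2.11 to 1.65.

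**Figure D1:**
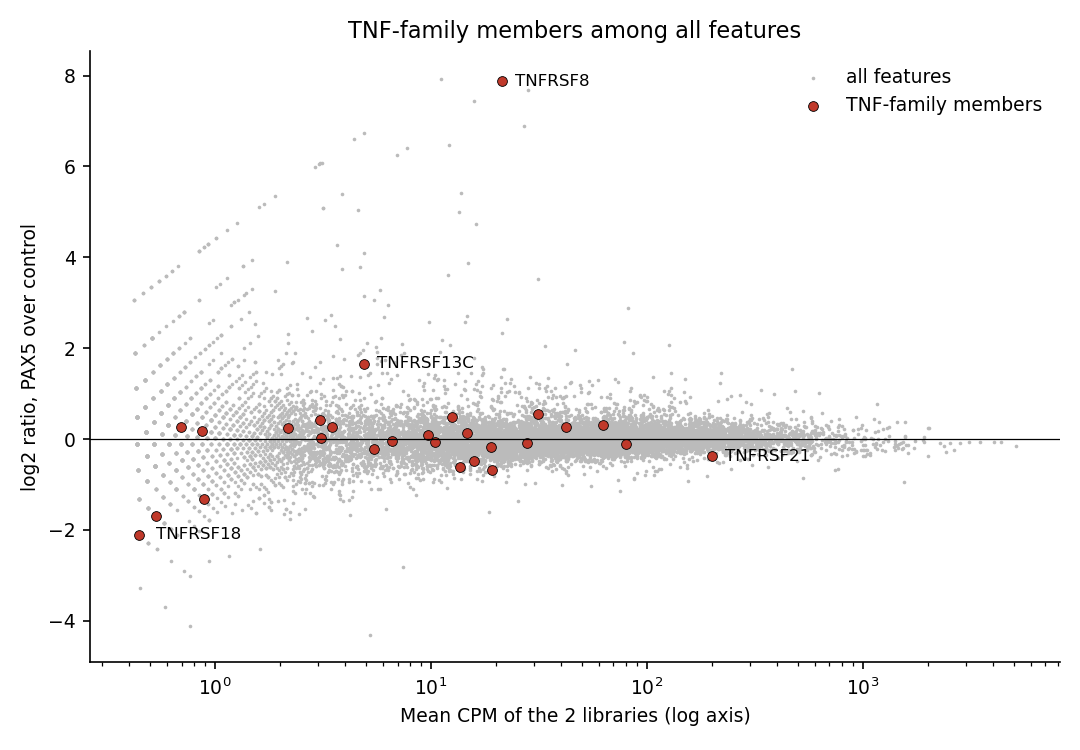
Each grey point is 1 of 13489 features with at least 10 summed counts and at least 1 in each library (43 further features with 0 counts in 1 library are not drawn), by mean CPM (log axis) and log2 ratio of the PAX5 over the control library. Red points are the 27 members: most lie within the grey band around 0, and TNFRSF8 lies at 7.87.

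TNFRSF8 encodes CD30, a receptor that signals through TRAF adaptors. It had 503 counts with induced PAX5 and 2 without, 42.3 against 0.181 CPM. The ratio was 234-fold (64.4 to 1935), and its lower bound was the third highest among all 13532 features. Per length, the level was 11.3 CPM per kilobase with induced PAX5, against 0.0485 in the control. The control level was below the 0.0727 that a count of 0 would still allow for a gene of this length, so TNFRSF8 was at the detection limit without induced PAX5. In the order of the 46 ligand and receptor genes by level, TNFRSF8 went from number 31 in the control to number 8 with induced PAX5, between RELT (12.6 CPM per kilobase) and TNFRSF1B (10.2). Among all features with at least 10 counts it lay at percentile 54.5 in the PAX5 library, a middle level for this transcriptome. CD30 is also made by activated T cells. The T-cell markers CD3D, CD3E, CD3G, CD2, CD5, CD7, CD8A, CD8B and CD28 summed to 1 count in each library, and 7 of them had 0 in both. The CD30 ligand gene TNFSF8 had 0 counts in both libraries, where a level of up to 0.252 (PAX5) or 0.272 CPM (control) would have gone undetected.

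The stretch of genome before the TNFRSF8 start site is shown because no other member differed so much, and that of TNFRSF1B because it is the next gene on chromosome 1 and also had an interval above 0. Both are the 250 bases before the RefSeq start site (GRCh38.p14, plus strand, chr1:12063053-12063302 for TNFRSF8 and chr1:12166741-12166990 for TNFRSF1B), 5′ to 3′, with matches to the GC box GGGCGG on either strand in capitals.
TNFRSF8: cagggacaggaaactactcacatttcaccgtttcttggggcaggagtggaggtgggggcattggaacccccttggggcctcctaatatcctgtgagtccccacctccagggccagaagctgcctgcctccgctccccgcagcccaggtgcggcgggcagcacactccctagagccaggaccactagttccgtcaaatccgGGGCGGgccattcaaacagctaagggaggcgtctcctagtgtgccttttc
TNFRSF1B: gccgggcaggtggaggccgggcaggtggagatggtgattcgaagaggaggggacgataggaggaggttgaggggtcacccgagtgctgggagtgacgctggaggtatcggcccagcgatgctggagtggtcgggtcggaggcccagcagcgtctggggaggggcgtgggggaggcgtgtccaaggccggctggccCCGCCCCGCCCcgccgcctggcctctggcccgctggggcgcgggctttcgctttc
The TNFRSF8 window held 1 GC box, which begins 50 bases before the start site, and the TNFRSF1B window held 2 on the opposite strand, beginning 55 and 50 bases before it and sharing a base. Of 35116 promoter windows of the same length, 42.6% held a GC box. The E-box CANNTG, which did not overlap a GC box, matched once in the TNFRSF8 window and at 2 places in the TNFRSF1B window, beside 61.8% of all windows with a match. Neither window held the letters GCGTGAC, found in the core of PAX5 sites (2.20% of all windows), the AP-1 site TGANTCA (6.57%) or the NF-kB consensus (5.21%), each searched on both strands. The windows differed in composition, with 9 CpG dinucleotides and 61.6% G and C for TNFRSF8, against 22 and 72.4% for TNFRSF1B and medians of 11 and 58% over all windows. RefSeq promoter sequences matched 31 of the 49 members. These matches are descriptions of letters, and no binding was measured.

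Several genes beside TNFRSF8 had intervals above 0 as well. Of its 3 neighbours on each side among the counted genes, 4 had intervals above 0 and none of the 6 was called: MIIP had 320 against 170 counts (log2 ratio 0.81, 0.53 to 1.08), TNFRSF1B 0.55, VPS13D 0.52 and MFN2 0.29. PLOD1 had -0.04 with an interval over 0, and SNORA59A had 0 counts. The stretch was then extended, after these values were seen, to 10 genes on each side, of which 11 of 20 had at least 10 counts. In this stretch 9 of the 11 intervals lay above 0 and 0 below, beside 18.7% above 0 in all features. When the intervals were widened for variation between cultures, set at a coefficient of 0.1 and then 0.2, 5 and 2 lay above 0. The widening needs counts in both libraries, so NPPA, with 0 control counts, could not be counted at either setting. Over all 13532 features, 779 and 354 lay above 0 at these settings, again without the 43 that had 0 counts in 1 library. The 9 included the natriuretic peptide gene NPPA with 49 against 0 counts, AADACL4 with 25 against 3 (log2 ratio 2.95, 1.24 to 5.32) and the retinal reductase gene DHRS3 with 411 against 186 (1.04, 0.78 to 1.30). Long genes had higher ratios in general, with a median log2 ratio of 0.19 in the longest of 10 length groups against -0.20 in the shortest. After log2 ratios were centred on gene length, 8 of the 11 intervals still lay above 0, beside 2243 of 13532 features. Beside TNFRSF13C on chromosome 22, with 3 neighbours on each side looked at in the same way, SREBF2 had 0.10 (0.04 to 0.17) and CENPM -0.24 (-0.43 to -0.06), and the other measured ones, SHISA8, SMIM45 and SEPTIN3, had intervals over 0.

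**Figure D2:**
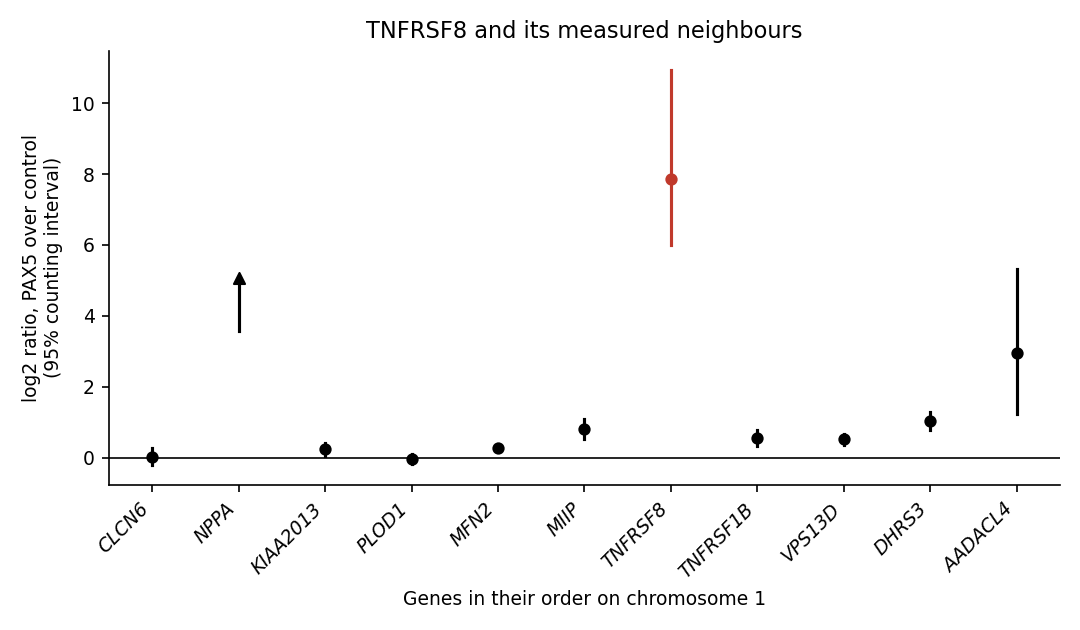
Log2 ratios (PAX5 over control) with 95% counting intervals of TNFRSF8 (red) and 10 of the 11 measured genes among the 10 on each side, in their order on chromosome 1. NPPA had 0 control counts, so its arrow starts at its lower bound of 3.57; 8 of the 10 neighbours drawn lie above 0, with CLCN6 and PLOD1 across it.

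TNFRSF13C, the BAFF receptor gene, had 88 against 26 counts, 7.92 against 2.52 CPM per kilobase. The ratio was 3.15-fold (2.01 to 5.08), which moved the gene from number 17 to number 11 in the order of levels. Its call rested on the scaling of the libraries. The log2 bound was 1.01 with the main scaling, 0.99 with total counts and 0.98 with upper-quartile factors, against the 1 that the rule asks for. At 934 bases it is a short gene, and after centring on length the log2 ratio was larger, at 1.90 (1.26 to 2.59). The other genes of the BAFF and APRIL system were barely detected. TNFSF13B, which encodes BAFF, had 0 counts in both libraries. TNFSF13, which encodes the related ligand APRIL, had 3 against 9 counts. The second BAFF receptor gene TNFRSF13B (TACI) had 0 against 1 and TNFRSF17, the plasma cell receptor BCMA, had 3 against 5, and neither reached 10 counts.

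Among receptors that bind TRAF adaptors, TNFRSF1B came next. It encodes the second TNF receptor and had 444 against 282 counts, 1.46-fold (1.26 to 1.70), with an interval above 0 but under the rule. RELT had 547 against 421 counts, its log2 ratio being 0.27 (0.09 to 0.46). CD40 was at a similar level in both libraries, at 183 against 154 counts and 0.14 (-0.17 to 0.46). TNFRSF14, the herpesvirus entry mediator HVEM, had 321 against 317 counts and -0.09 (-0.32 to 0.14). TNFRSF11A, the RANK receptor gene, had 42 against 29 counts, the TWEAK receptor gene TNFRSF12A 11 against 9, and both intervals included 0. TNFRSF18, which encodes the costimulator GITR, had 2 against 8 counts, 0.23-fold with an interval of 0.024 to 1.16, so a difference was not detectable at this depth. LTBR, TNFRSF9, TNFRSF19 and EDA2R had 0 counts in both libraries, while CD27 had 4 against 2 and TNFRSF4, the OX40 gene, 1 against 0. In all, 9 of 17 receptors of this group had at least 10 counts, 4 of them had intervals above 0 and none below, beside 18.7% and 16.8% of all features.

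Death domain receptors had the 2 highest receptor levels in both libraries, and none was called. TNFRSF21 (death receptor 6) had the highest level of all members in both libraries, at 47.7 CPM per kilobase with induced PAX5 and 61.9 in the control. It had 2060 against 2487 counts, 1.30-fold lower in the PAX5 library (1.22 to 1.38), and its interval was the only one below 0 among receptors. TNFRSF1A, the main TNF receptor, had 916 against 919 counts, its log2 ratio being -0.11 (-0.24 to 0.02), an interval that lay below 0, at -0.28 to -0.008, with upper-quartile scaling. Both TRAIL death receptors were present: TNFRSF10B had 821 against 617 counts, 1.24-fold (1.11 to 1.37), and TNFRSF10A had 60 against 65, a log2 ratio of -0.22 (-0.75 to 0.31). FAS was weakly expressed, at 45 against 35 counts and 0.26 (-0.41 to 0.94). NGFR had 28 against 22 counts and TNFRSF25, the receptor DR3, had 9 against 7, both with intervals over 0, and EDAR had 2 against 0. Of 8 death domain receptors, 7 were measured, with 1 interval above 0 (TNFRSF10B), 1 below (TNFRSF21) and a median of 0.24, beside 18.7% above and 16.8% below in all features.

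The decoy receptors of TRAIL had values on both sides of 0. TNFRSF10D had 174 against 115 counts, 1.41-fold (1.10 to 1.80), whereas TNFRSF10C had 6 against 14, a log2 ratio of -1.33 (-2.99 to 0.14) whose interval included 0. The TRAIL receptor genes are related copies on one chromosome, and reads could have been split between them. TNFRSF6B, the decoy for FAS ligand, had 4 against 3 counts, and TNFRSF11B (osteoprotegerin) had 0 in both.

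**Figure D3:**
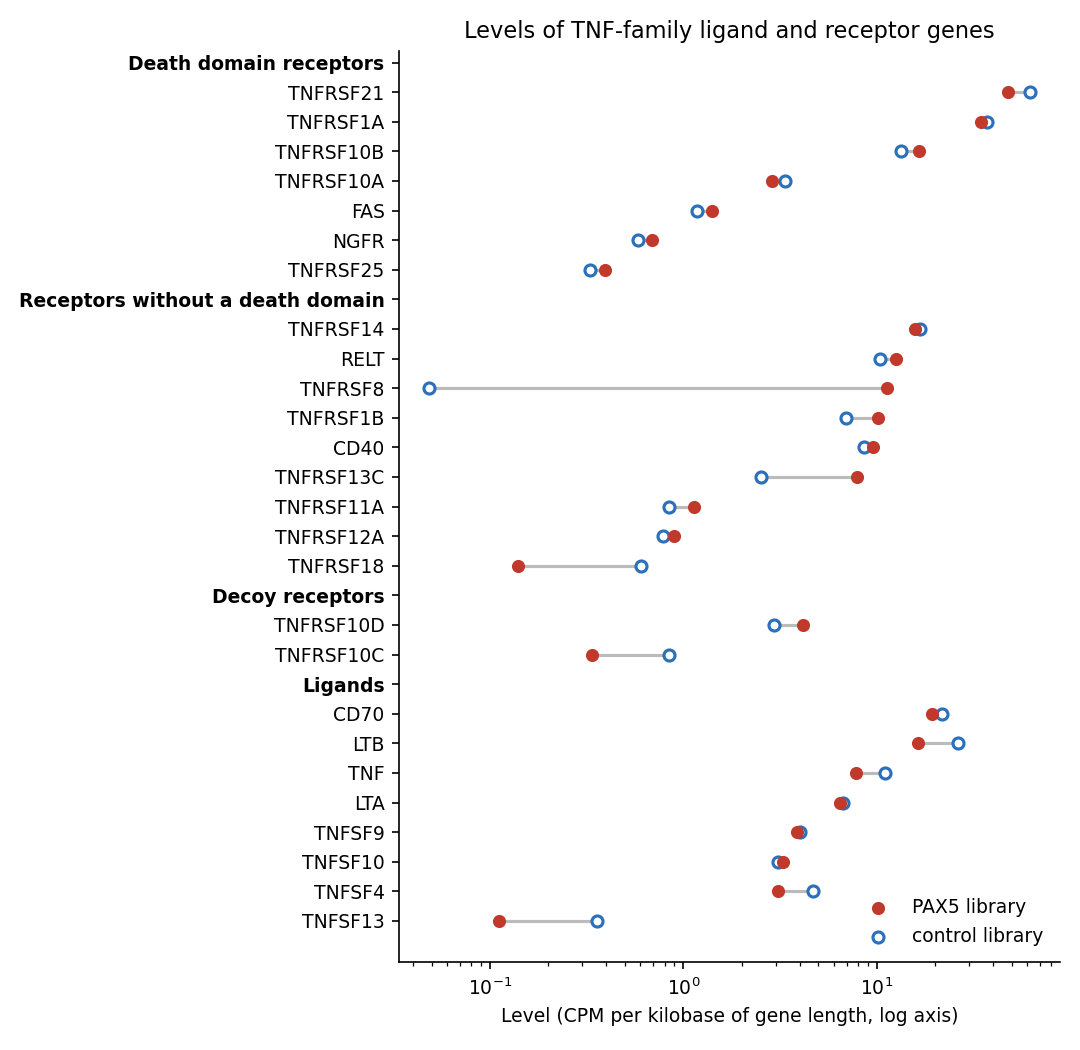
Level in CPM per kilobase (log axis) of the 26 ligand and receptor genes with at least 10 counts, with induced PAX5 (filled red) and in the control (open blue), grouped by role. Paired points lie close together for most genes; TNFRSF8 spans 0.0485 to 11.3 and TNFRSF13C 2.52 to 7.92.

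Of 17 ligand genes, 8 had at least 10 counts, 0 were called, 3 had intervals below 0 and 0 above, beside 16.8% and 18.7% of all features. Their median log2 ratio was -0.33, beside -0.01 for all features, and it was -0.16 when ratios were centred on length. LTB, the membrane anchor of the lymphotoxin heterotrimer, had 175 against 261 counts, 1.60-fold lower in the PAX5 library (1.32 to 1.95). TNFSF4, the OX40 ligand, had 128 against 181 counts, 1.52-fold lower (1.21 to 1.92). TNF had 156 against 203 counts, 1.40-fold lower (1.13 to 1.74). LTA, which lies beside TNF and LTB on chromosome 6, had 122 against 118 counts, its log2 ratio being -0.06 (-0.43 to 0.32), so its interval included 0 where those of TNF and LTB did not; the difference between these genes was not tested. LTB is one of the shortest members, at 894 bases. Centred on length, its log2 ratio went from -0.68 to -0.43 (-0.72 to -0.15), that of TNF from -0.49 to -0.38 (-0.69 to -0.07) and that of TNFSF4 from -0.61 to -0.62. The same centring moved CD70, LTA and TNFSF9, whose intervals included 0 either way, from just below 0 to 0.08, 0.05 and 0.06, so that 4 of the 8 ligands then lay above 0 and 4 below. TNF is also made by myeloid cells. The RNA came from a leukaemia line sorted for GFP. The 10 myeloid markers summed to 822 counts (PAX5) against 1491 (control), most of them from MPO (554 against 1138) and ITGAM (222 against 278). Among the other markers, CSF1R had 14 against 41 and CD33 28 against 30, while S100A8, S100A9 and FCGR3A had 0 in both and CD14 had 1 and 3. The part of myeloid cells in the ligand values was not tested, and in bulk RNA fewer cells of a type and less RNA per cell cannot be told apart.

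The other measured ligands differed by less than their counting error. CD70 was the most abundant ligand in the PAX5 library, at 19.4 CPM per kilobase against 21.9 in the control library, with 211 against 221 counts, its log2 ratio being -0.17 (-0.45 to 0.11). TNFSF9, the 4-1BB ligand, had 77 against 74 counts, and TNFSF10, which encodes TRAIL, had 119 against 104, with log2 ratios of -0.05 and 0.09. The values of TNFSF12 (TWEAK, 2 against 7 counts) and TNFSF13 are uncertain beyond their low counts. Their readthrough row TNFSF12-TNFSF13 shares sequence with both and had 0 counts, and how shared reads were assigned is not given in the sources used here. CD40LG, FASLG, TNFSF8, TNFSF11, TNFSF13B, TNFSF14, TNFSF15 and TNFSF18, many of them products of activated T or myeloid cells, had 0 counts in both libraries. The noncoding TNFRSF10A-DT had 37 against 34 counts and TNFRSF14-AS1 had 3 against 4, and reads of an antisense row cannot be told from those of its partner without a known strand setting.

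**Figure D4:**
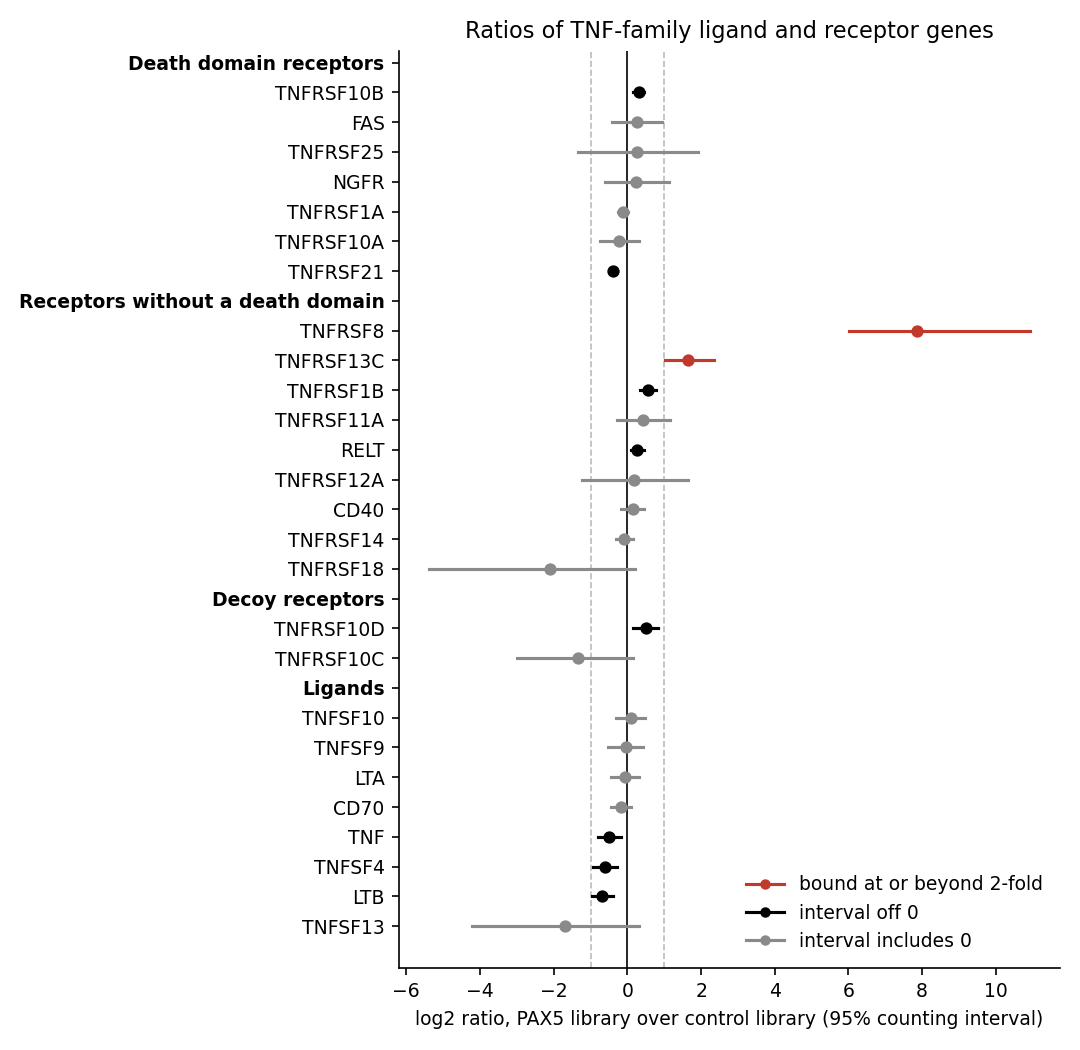
Log2 ratio (PAX5 over control) with 95% counting interval for the same 26 genes by role, with dashed lines at 2-fold in each direction. Red marks the 2 genes past the rule, black the other 8 with intervals off 0 (4 above, 4 below) and grey those whose interval includes 0; the widest intervals belong to TNFRSF18, TNFSF13 and TNFRSF8, each with few counts in 1 library or both.

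Ligand and receptor transcripts occurred together for a minority of the known pairs. Of 32 ligand-receptor pairs, both genes had at least 10 counts in 9, all of them from TNF, LTA or TNFSF10 to their receptors. In another 9 only the receptor did, among them TNFSF8 with TNFRSF8, TNFSF13B with TNFRSF13C, CD40LG with CD40, FASLG with FAS and TNFSF14 with TNFRSF14. In 7 only the ligand did, among them CD70 with CD27, TNFSF4 with TNFRSF4, TNFSF9 with TNFRSF9 and LTB with LTBR, and in 7 neither did. Both receptors called higher in the PAX5 library thus had ligand genes at 0 counts in both libraries. Summed over all 29 receptors, the level was 179 CPM per kilobase (PAX5) against 170 (control), and without TNFRSF8 it was 168 and 170. Summed over the 17 ligands it was 60.7 and 78.7, of which the short gene LTB gave 16.5 and 26.4. The same sum over all features was also lower in the PAX5 library, at 400241 against 422376.

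Downstream of the receptors, 53 genes of adaptors, caspases, ubiquitin enzymes, kinases, NF-kB factors and ligand-shedding proteases were looked up. Of these, 51 had at least 10 counts, 0 passed the rule, 13 had intervals above 0 (25.5%) and 7 below (13.7%), beside 18.7% and 16.8% of all features, and the median log2 ratio was 0.00. The single genes are given by their values only, without a test. These shares and values are given without centring on length, although long genes had higher ratios in general. The median log2 ratio was 0.19 in the longest of 10 length groups. OTULIN and CYLD, named below, are long genes of 7896 and 8805 bases. TRAF1, an adaptor that binds CD30 and TNFR2 and that NF-kB induces, had the largest difference, at 86 against 36 counts and 2.22-fold (1.49 to 3.37). Of the other 10 adaptors, RIPK1, the kinase that joins TNFR1 complexes, was lowest at -0.26 (-0.44 to -0.07). TRAF2, TRAF3, TRAF5, TRADD and FADD had intervals over 0. In the caspase branch, the initiator caspase gene CASP8 had 0.22 (0.006 to 0.43) and BID -0.46 (-0.63 to -0.30), while RIPK3 had 0 counts. Among ubiquitin enzymes, the deubiquitinase genes OTULIN (0.32), TNFAIP3 (0.24) and CYLD (0.21) and the TNFAIP3 partner TNIP1 (0.13) had intervals above 0. BIRC2, which encodes the ligase cIAP1, had -0.19 (-0.35 to -0.03). Among kinases, MAP3K5 had 0.30 and TAB2 0.15, with IKBKB at -0.22 and IKBKG at -0.68 (-1.23 to -0.14), a gene with a near-identical pseudogene copy whose counts are uncertain. MAP3K14, the kinase of the alternative NF-kB branch, had 207 against 165 counts and an interval over 0. The NF-kB subunit genes REL (0.45) and NFKB1 (0.21) had intervals above 0 and NFKBIE, which encodes an inhibitor, had -0.36. RELB had -0.40 (-0.84 to 0.04) and NFKB2 and RELA lay closer to 0. ADAM17, the protease that sheds TNF, had 0.32 (0.19 to 0.46), ADAM10 had 0.15 and RHBDF2, which encodes the iRhom2 cofactor of ADAM17, had -0.43 (-0.83 to -0.04).

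**Figure D5:**
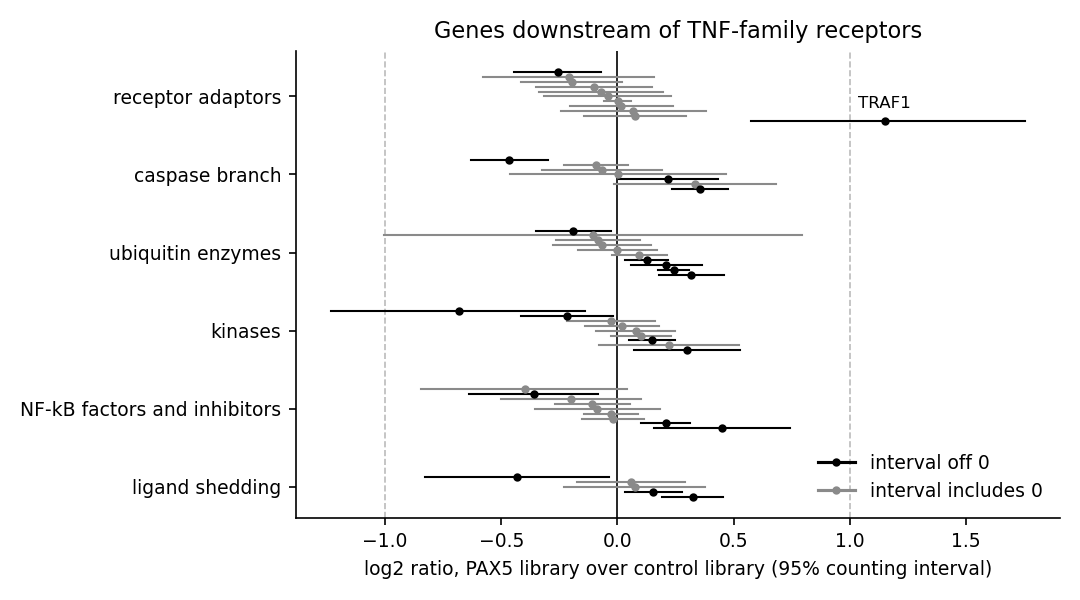
Log2 ratios (PAX5 over control) with 95% counting intervals of the 51 measured pathway genes, 1 line per gene in 6 lists, black where the interval is off 0 and grey where it includes 0. Dashed lines mark 2-fold; the TRAF1 ratio lies past 2-fold with its lower bound at 1.49-fold.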

How the data were processed

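The values deposited by the authors are raw read counts for each gene (whole numbers), listed by Entrez number with the gene's length. They were made with featureCounts against hg19 (GRCh37), per the submitters' processing notes; aligner, software versions and strand setting: not given in the sources used here. Samples were grouped by their genotype labels, and columns of the series table were assigned by the library number at their head. All 51404 values were equal in that table and the single-library files.

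Symbols were looked up by Entrez number in RefSeq (GRCh38.p14), with 23696 of 25702 rows matched; the 2006 unmatched rows were kept for library sizes and background. TMM factors (edgeR 4.0.16 under R 4.3.3) over features with at least 10 counts were 0.9954 (PAX5) and 1.0046 (control). No gene could be tested with 1 library per group, so a rule of size on the exact Clopper-Pearson 95% interval of the ratio (scipy 1.17.1) was used. Intervals, and the floor of 3 counts that stands for 0, cover counting error only, because 1 library per group gives no spread between cultures. PCR reads are not independent molecules, so even the counting error may be understated. The calculation was tested on simulated counts with counting error only, so the test cannot show how the rule behaves with variation between cultures. The members and lists were chosen with earlier results of these data known. Genes named are all members, the pathway genes farthest from 0 in each list and the neighbours of called members; a few other pathway and marker genes were named after their values were seen. The values of 2 genes are not reported here, while the counts of lists and neighbours include them. Alternatives covered scaling, including DESeq2 1.42.0 size factors, count minimum, fold, added variation and length.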

Additional observations from a re-analysis of the deposited data

How the results depend on the processing

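TNFRSF8 stayed past the rule under every alternative run, with a log2 ratio between 7.84 and 7.88, and with an assumed biological coefficient of variation of 0.2 its bound was 5.84. TNFRSF13C did not: the number of members called higher fell from 2 to 1 with total counts, upper-quartile factors, a bound at 4-fold and an assumed coefficient of variation of 0.1 or 0.2, and TNFRSF13C was the one lost. Over all 13532 features, those called higher numbered 177, 175, 70, 111 and 87 at these settings, instead of 182. The 111 and 87 leave out 43 features with 0 counts in 1 library, which have no finite ratio to widen. Part of the fall from 182 may therefore come from these features. Assumed variation widens the intervals, and members with intervals above 0 numbered 3 and 2, and below 0 numbered 2 and 0, at coefficients of 0.1 and 0.2, instead of 6 and 4. Intervals fell in number over all 13532 features too, to 779 and 354 above 0 and to 414 and 89 below, instead of 2527 and 2274. The same 43 features are missing from the counts with assumed variation. The neighbours of TNFRSF8 above 0, an alternative added after seeing the data, numbered 5 and 2 instead of 9. NPPA was among the 9 but, with 0 control counts, could not be counted under assumed variation. By a point ratio at 2-fold, 3 members were lower (TNFRSF18, TNFSF13 and TNFRSF10C, with 20 counts or fewer each over both libraries) and 1 pathway gene, TRAF1, was higher, where 0 of each passed the rule. By the same point ratio, 547 of all 13532 features were higher and 234 lower, instead of 182 and 7. No other count of members, pathway genes or neighbours left the range of 1.5 times, and neither called member changed sign. Centred on length, 4 members that were not called and whose intervals included 0 either way did: TNFRSF14 (-0.09 to 0.02), CD70 (-0.17 to 0.08), LTA (-0.06 to 0.05) and TNFSF9 (-0.05 to 0.06). TNFRSF10A-DT went from 0.02 to -0.02 with upper-quartile factors, and no other member changed sign under any alternative run. No paired analysis was possible because each group has 1 library. Depth limits the weak members: 14 had no counts, and TNFRSF18, with 10 in all, had a log2 interval from -5.38 to 0.22.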
